A study of Danio rerio with 12 samples.

Results

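The Ndrg (N-myc downstream regulated gene) family of zebrafish was followed in injured ventricles of *grl5nt-/-* mutants and wild-type (WT) siblings. Its 6 members, *ndrg1a*, *ndrg1b*, *ndrg2*, *ndrg3a*, *ndrg3b* and *ndrg4*, were taken by gene name from the 32105 genes of the deposited table. The family was picked because *ndrg3a* was higher in the mutants and because *ndrg4* has a known role in zebrafish heart growth. The differences of all 6 members between the genotypes are therefore given as descriptions without a p-value.

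Both groups were AB strain fish aged 5 months, not treated with any agent, whose ventricular apex had been resected 7 days before collection (7 days post amputation, dpa). The *grl5nt-/-* allele is a small CRISPR/Cas9 deletion in the first exon of *grl* (*hey2*), which encodes the transcriptional repressor Gridlock, and the mutation is present in every cell of the fish and not only in cardiomyocytes (CMs). Each library was made from a pool of 6 ventricles, and each genotype has 3 libraries. Of the 12 samples in the series, those of the *grl* overexpression experiment are not analysed here. Values of single libraries are always given in the order of replicates 1, 2 and 3 of each genotype.

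Ndrg proteins share an alpha/beta hydrolase fold but are thought to lack enzyme activity. In mammalian cells NDRG1 is repressed by Myc proteins and induced by low oxygen, and it is phosphorylated by the kinases SGK1 and GSK3. NDRG2 is abundant in brain and striated muscle. Human NDRG3 protein is stabilised by lactate in low oxygen and activates Raf-ERK signalling. Zebrafish *ndrg4* is expressed in the heart and the nervous system, and embryos depleted of it form hearts with fewer dividing myocytes.

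Between 12520034 and 15006574 reads were counted on genes in each library. CPM are counts scaled to a common library total, here corrected by its TMM factor (trimmed mean of M values). After TMM scaling *hey2* was not lower in the mutants but higher in every mutant library (11.3 ± 1.76 CPM in WT against 17.6 ± 1.78 CPM, SD, n = 3 each). Its unscaled reads were 256, 177 and 127 in WT and 228, 218 and 189 in the mutants, which overlap. Its log2 fold change was 0.64 (SE 0.22; edgeR, adjusted p = 0.405). A transcript that is still made cannot serve to check which libraries are mutant. The mitochondrial gene *mt-co1* was at 0 reads in WT replicates 1 and 2 and in mutant replicate 1, whereas the other 3 libraries had between 583890 and 739939. This split crosses the genotypes and no label names it. The labelled tissue was checked with 9 CM markers, all of them tested, whose summed level was 32399 to 45158 CPM in WT and 33807 to 50006 CPM in mutant libraries. These are whole ventricles, so a change in the share of a cell type and a change in RNA per cell cannot be told apart.

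Among the members, *ndrg4* had the highest and *ndrg1b* the lowest level per transcript length. Levels were compared between genes as FPKM (reads or read pairs relative to the length of the gene's exons and to the mapped reads of the library), over all 6 libraries. The mean was 14.5 ± 12.2 FPKM for *ndrg4*, 9.52 ± 1.90 FPKM for *ndrg3b*, 7.90 ± 4.04 FPKM for *ndrg2*, 6.45 ± 2.38 FPKM for *ndrg3a*, 3.97 ± 1.99 FPKM for *ndrg1a* and 0.108 ± 0.0995 FPKM for *ndrg1b* (SD, n = 6). Of the 15 pairs of members, 9 had the same order in all 6 libraries. For each of these 9 pairs the two-sided exact sign-flip permutation test of the log2 FPKM ratio gave p = 0.03125, the smallest that 6 libraries allow. Adjusted over the 15 pairs this became 0.0521, so no pair passed the threshold of 0.05. The adjusted value was fixed by how many pairs reached the smallest p, whatever the size of their ratios. It therefore cannot tell these 9 pairs apart. All 5 pairs with *ndrg1b* were among the 9, and the others were *ndrg4*, *ndrg3b* and *ndrg2* over *ndrg1a* and *ndrg3b* over *ndrg3a*. Among the first 4 genes of the order, no neighbours kept 1 order. *ndrg4* lay above *ndrg3b* in 4 of the 6 libraries (mean log2 ratio 0.23 ± 1.08 SD, exact permutation test, p = 0.594, adjusted p = 0.636), *ndrg3b* above *ndrg2* in 3 (0.41 ± 0.78, p = 0.375, adjusted p = 0.433) and *ndrg2* above *ndrg3a* in 3 (0.18 ± 1.06, p = 0.8125, adjusted p = 0.8125). *ndrg3a* and *ndrg1a* kept their order in 4 libraries (0.75 ± 0.99, p = 0.125, adjusted p = 0.188).

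**Figure D1:**
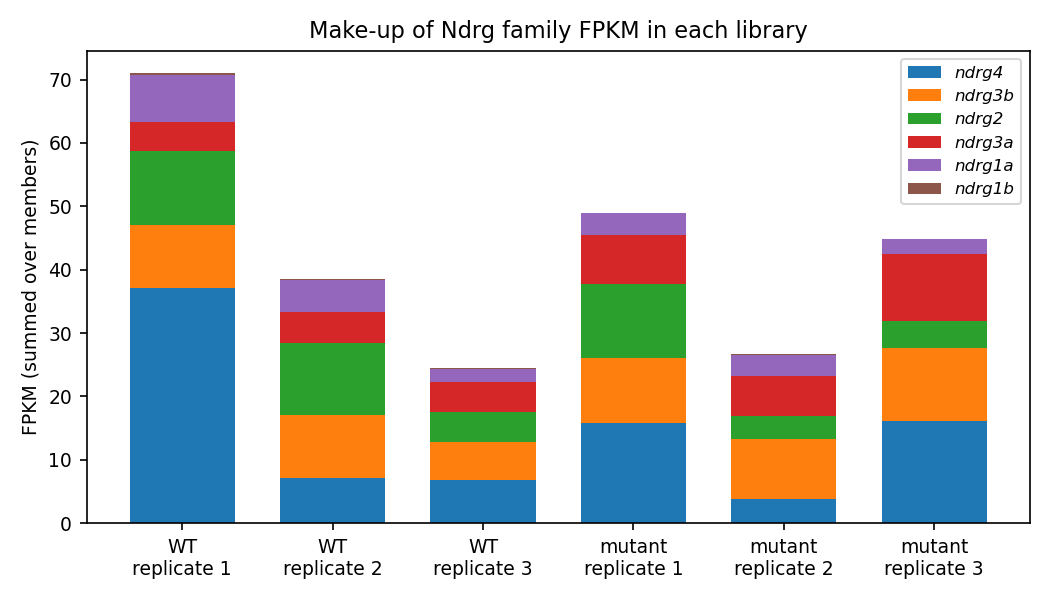
Stacked bars of the FPKM of each Ndrg member in each of the 6 libraries, 3 WT and 3 *grl5nt-/-*. The summed FPKM runs from 24.5 in WT replicate 3 to 71.0 in WT replicate 1, and *ndrg4* makes up between 14.2% and 52.3% of it.

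The summed FPKM of the family was 71.0, 38.5 and 24.5 in the WT and 48.9, 26.7 and 44.9 in the mutant libraries, so the genotypes overlapped. The share of *ndrg4* in this sum was 52.3%, 18.3% and 28.0% in the WT libraries and 32.5%, 14.2% and 35.8% in the mutants. *ndrg3a* held 6.59%, 12.3% and 19.4% of it in WT and 15.7%, 23.2% and 23.8% in the mutants.

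*ndrg3a* and *ndrg3b*, the zebrafish orthologs of mammalian NDRG3, were the members with a higher level in every mutant library. *ndrg3a* (ENSDARG00000013087) lies on chromosome 11 of GRCz10 from 24826895 to 24901466. It drew 332, 311 and 337 reads in the WT libraries and 478, 430 and 632 in the mutant ones. After scaling this was 17.2, 18.6 and 26.4 CPM in WT and 32.7, 37.2 and 61.7 CPM in the mutants. The lowest mutant library lay above the highest WT library, and mutant replicate 3 stood above the other mutants. The means were 20.7 ± 4.98 CPM in WT and 43.9 ± 15.6 CPM in *grl5nt-/-* ventricles (SD, n = 3 each), so *ndrg3a* had a log2 fold change of 1.08 (SE 0.30). On the FPKM scale the 3 WT libraries lay between 4.68 and 4.75 and the mutants at 7.67, 6.19 and 10.7. The groups did not overlap on that scale either.

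*ndrg3b* (ENSDARG00000010052, chromosome 23, 15076417 to 15234844) drew 1093, 1017 and 652 reads in the WT libraries and 986, 1023 and 1061 in the mutant ones. This corresponded to 56.6, 60.7 and 51.1 CPM in WT and 67.4, 88.5 and 103.6 CPM in the mutants. The groups did not overlap in CPM, with means of 56.1 ± 4.82 and 86.5 ± 18.2 CPM (SD, n = 3 each), and the log2 fold change was 0.62 (SE 0.23). They overlapped in FPKM, at 9.94, 10.02 and 5.93 in WT and 10.2, 9.50 and 11.6 in the mutants. FPKM are not corrected for the reads taken by a few abundant transcripts, and the median log2 fold change over all tested genes was -0.33 on the log2(FPKM + 0.1) scale against -0.05 with TMM. Relative to these medians the log2 fold change of *ndrg3b* was 0.63 on the FPKM scale and 0.67 with TMM, and that of *ndrg3a* was 1.07 and 1.13. The TMM factors were 1.31, 1.23 and 0.851 in WT and 1.14, 0.788 and 0.819 in the mutants. They were lower in every library with *mt-co1* reads than in those without. The part of this split in the difference between the scales was not tested.

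Close paralogs can share reads. How such reads were counted is not known, since the counting program is not given in the sources used here. The counts of *ndrg3a* and *ndrg3b* were therefore also summed, which gave 73.8, 79.3 and 77.5 CPM in WT and 100.1, 126 and 165 CPM in the mutants. The sum was higher in every mutant library, with a ratio of the means of 1.70. That had to follow, since each of the 2 genes was higher in every mutant library in CPM. The sum therefore adds nothing on how reads were divided between them. The FPKM of *ndrg3a* divided by that of *ndrg3b* was 0.471, 0.474 and 0.801 in WT and 0.751, 0.652 and 0.923 in the mutants, and this ratio overlapped between the genotypes. Over the 6 libraries *ndrg3a* and *ndrg3b* had the highest correlation of log2 CPM among the tested members (Pearson's r 0.86, Spearman's rho 0.83, n = 6 libraries of both genotypes and both sides of the split, as a description).

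**Figure D2:**
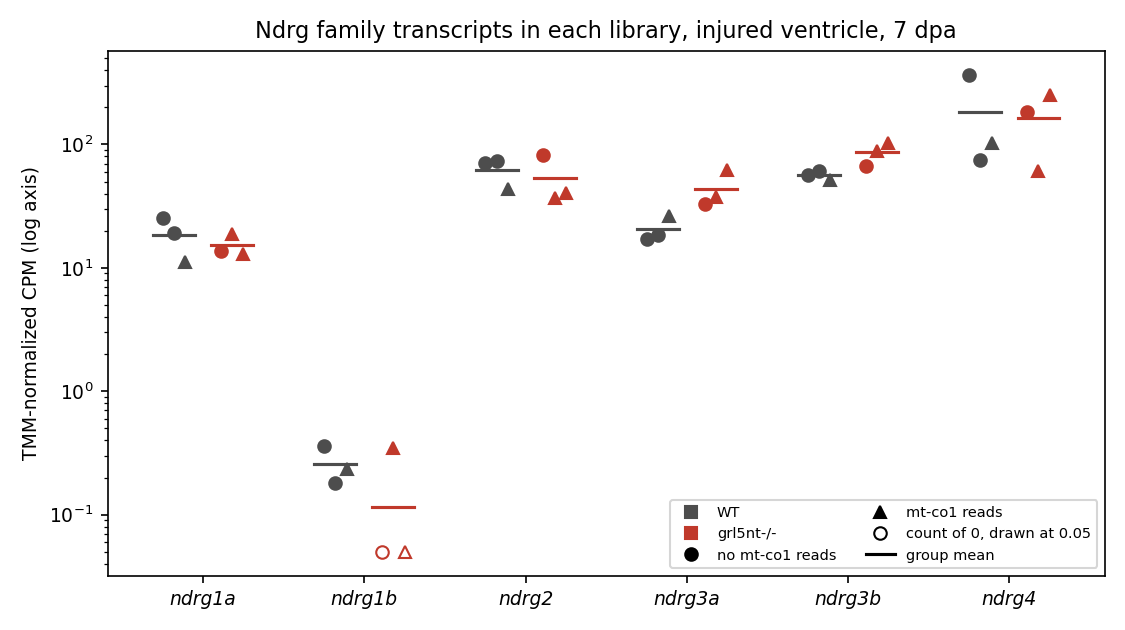
TMM-normalized CPM (log axis) of each Ndrg member, 1 point per library, with lines at the group means of the 3 WT and 3 *grl5nt-/-* libraries and triangles for libraries with *mt-co1* reads. The mutants of *ndrg3a* (32.7 to 61.7 CPM) and *ndrg3b* (67.4 to 103.6 CPM) lie above WT, *ndrg2* follows the *mt-co1* split, and *ndrg4* spreads from 61.3 to 368 CPM.

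Of the 6 members, 5 passed the filter on low counts, and the groups did not overlap for 2 of these 5, both higher in the mutants and both with a fold change above 1.5. Over all 15602 tested genes the groups did not overlap with the mutants higher in 6.95% (3.61% with a fold change above 1.5), and with the mutants lower in 8.64%. With the quasi-likelihood test of edgeR, 0.0769% of all genes (12) and none of the 5 members had a Benjamini-Hochberg adjusted p below 0.05. At an unadjusted p below 0.05 there were 2 members and 10.6% of all genes, and DESeq2 gave 0 members past the adjusted and 2 past the unadjusted threshold. The median log2 fold change was -0.14 over the 5 members and -0.05 over all tested genes. Since the family was picked on this contrast, nothing is read from these counts.

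Within the libraries without *mt-co1* reads (2 WT and 1 mutant), the log2 difference between mutant and WT was 0.87 for *ndrg3a*, and within those with such reads (1 WT and 2 mutants) it was 0.86. For *ndrg3b* the corresponding differences were 0.20 and 0.90. On each side 1 genotype had a single library, so these values have no error. *ndrg3a* was itself higher in libraries with *mt-co1* reads, which hold 2 of the 3 mutants (log2 difference 0.58, SE 0.20, with genotype in the model). Adding the split to the model gave a genotype log2 fold change of 0.89 for *ndrg3a* and 0.55 for *ndrg3b*. Leaving out each library in turn moved the log2 fold change of *ndrg3a* between 0.76, without mutant replicate 3, and 1.31, without WT replicate 3. That of *ndrg3b* ranged from 0.48, without mutant replicate 3, to 0.80, without mutant replicate 1.

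*ndrg4*, the member with a role in heart growth, varied more between libraries of 1 genotype than between the genotypes. *ndrg4* (ENSDARG00000103937, chromosome 25, 13235775 to 13285349) drew 7109, 1248 and 1313 reads in the WT libraries and 2670, 709 and 2566 in the mutant ones. Scaled, it had 368, 74.5 and 103 CPM in WT and 183, 61.3 and 251 CPM in the mutants. WT replicate 1 was the highest and mutant replicate 2 the lowest library, 6 times apart, and the groups overlapped. The mean was 182 ± 162 CPM over the WT and 165 ± 95.9 CPM over the mutant libraries (SD, n = 3 each), and the log2 fold change was -0.14 (SE 0.66). Without WT replicate 1 the log2 fold change was 0.89, and without mutant replicate 2 it was 0.26, so its sign turned when either library was left out. The pooled within-group SD of log2 CPM was 1.14 for *ndrg4*, larger than that of 97.6% of the tested genes, against 0.41 for *ndrg3a* and 0.24 for *ndrg3b*. Across the split, *ndrg4* overlapped as well, with 183 to 368 CPM in 2 of the libraries without *mt-co1* reads and 74.5 CPM in the third, and 61.3 to 251 CPM in those with such reads. Of 12 neuron markers 11 were found and 4 were tested, and *nefmb* was at or below 3 counts in every library. Their summed level was 24.2, 22.3 and 24.1 CPM in WT and 11.5, 4.24 and 8.40 CPM in the mutants. It was lower in every mutant library, but 1 gene, *syt1a*, carried this difference, and without it the sum was 3.52 to 8.15 CPM in WT and 3.89 to 6.74 CPM in the mutants, which overlap. The part of these markers in the values of *ndrg4* was not tested.

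*ndrg2*, abundant in brain and striated muscle in mammals, followed the split of the libraries and not the genotype. *ndrg2* (ENSDARG00000011170, chromosome 7, 3794730 to 3900254) drew 1360, 1238 and 556 reads in the WT libraries and 1211, 426 and 417 in the mutant ones. This was 70.4, 73.9 and 43.6 CPM in WT and 82.8, 36.8 and 40.7 CPM in the mutants. WT replicates 1 and 2 and mutant replicate 1, the libraries without *mt-co1* reads, had 75.7 ± 6.38 CPM and the others had 40.4 ± 3.38 CPM (SD, n = 3 each). *ndrg2* was the only one of the 5 tested members whose sides did not overlap, whereas the sides did not overlap in 51.3% of all tested genes, and in 27.1% with the lower values beside *mt-co1* reads, as for *ndrg2*. With genotype in the same model, the log2 difference between libraries with and without *mt-co1* reads was -0.91 (SE 0.14) for *ndrg2*, 0.58 (SE 0.20) for *ndrg3a*, 0.16 (SE 0.18) for *ndrg3b*, -0.39 (SE 0.30) for *ndrg1a* and -0.67 (SE 0.66) for *ndrg4*. In edgeR's test of this term *ndrg2* and *ndrg3a*, 2 of the 5 members, had an adjusted p below 0.05 (0.00242 and 0.0426), as did 38.2% of all tested genes. The erythrocyte markers summed to between 7274 and 18340 CPM in the libraries without *mt-co1* reads and 27150 to 35794 CPM in the others, and the CM markers to between 32399 and 33807 CPM and 43873 and 50006 CPM. Single CM markers went either way, with 3 of 9 higher and 6 lower beside *mt-co1* reads and a median log2 difference of -0.18. Their part in the values of *ndrg2* was not tested. By genotype, *ndrg2* had 62.6 ± 16.6 CPM in WT and 53.4 ± 25.5 CPM in mutant ventricles (SD, n = 3 each). Its log2 fold change of -0.23 (SE 0.36) became 0.02 with a term for the split and -0.67 without mutant replicate 1.

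*ndrg1a* and *ndrg1b* are the zebrafish orthologs of mammalian NDRG1, which is known for its response to low oxygen. *ndrg1a* (ENSDARG00000032849, chromosome 19, 35372847 to 35392717) drew 494, 319 and 142 reads in the WT libraries and 202, 219 and 133 in the mutant ones. This was 25.6, 19.0 and 11.1 CPM in WT and 13.8, 18.9 and 13.0 CPM in the mutants, with every mutant library inside the WT range. The log2 fold change was -0.29 (SE 0.32), and it was 0.02 without WT replicate 1. Between the genotypes *ndrg1a* differed by -0.67 (log2) among libraries without *mt-co1* reads and by 0.49 among the others, of opposite sign. *ndrg1b* (ENSDARG00000010420, chromosome 16, 31553812 to 31559300) drew 7, 3 and 3 reads in the WT libraries and 0, 4 and 0 in the mutant ones. Detection was set at 3 reads, which was 0.155 to 0.293 CPM in these libraries and covers counting error only, so a difference in *ndrg1b* was not detectable at this depth. It did not pass the filter on low counts and no fold change is given.

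**Figure D3:**
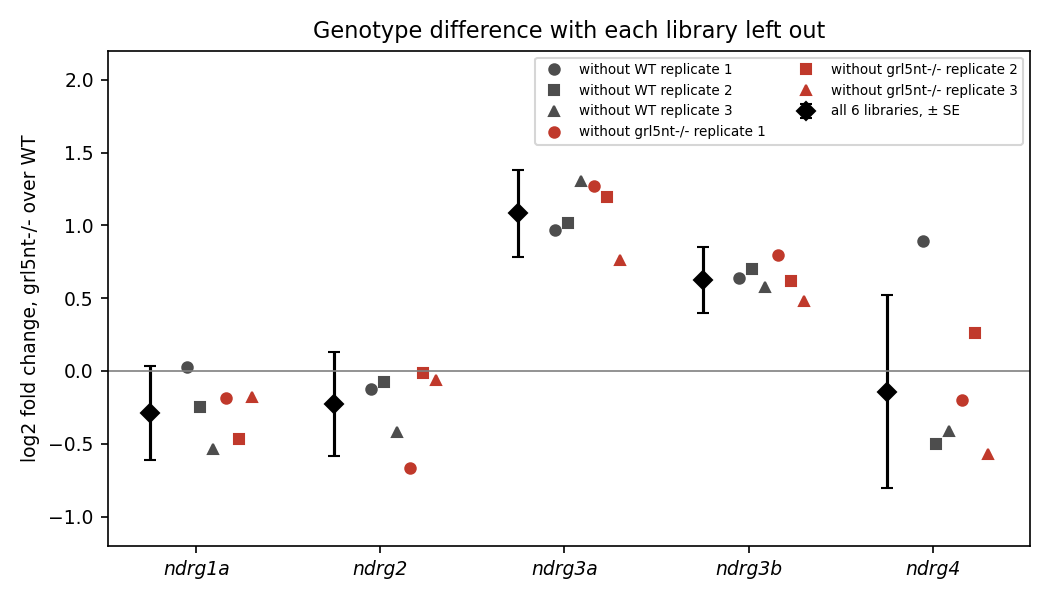
Log2 fold change of *grl5nt-/-* over WT for the 5 tested members, with all 6 libraries (diamonds, bars show the SE) and with each library left out in turn (other symbols). *ndrg3a* stays between 0.76 and 1.31 and *ndrg3b* between 0.48 and 0.80, whereas *ndrg4* moves from -0.57 to 0.89.

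The members of both paralog pairs lie in matching gene neighbourhoods in the deposited annotation. *ndrg3a* lies between *phf20a* and SLA2 (1 of many) on chromosome 11, and *ndrg3b* between *sla2* and *phf20b* on chromosome 23. *ndrg1a* is next to *wisp1a* on chromosome 19 and *ndrg1b* next to *wisp1b* on chromosome 16. The only gene that overlaps a member in position is *phf20a*, from 24806466 to 24827633 at one end of *ndrg3a*. It drew 53, 45 and 8 reads in the WT libraries and 32, 5 and 8 in the mutant ones, at most 53 in any library. The neighbours of *ndrg3b*, named after their values were seen, had lower means in the mutants. The log2 fold change was -0.95 (SE 0.39) for *sla2*, with 59, 105 and 94 reads in the WT libraries and 36, 33 and 34 in the mutant ones, and -0.49 (SE 0.30) for *phf20b*. In CPM both genes overlapped between the genotypes.

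For *ndrg3a* and *ndrg4* the genes with the most similar pattern over the 6 libraries were looked up by Pearson's r of log2 CPM among the 12223 genes whose mean FPKM reached 1. The 3 nearest to *ndrg3a* were *map7d1b* (r 0.998), *hnrnpaba* (r 0.991) and *atp6v0b* (r 0.985), all with Spearman's rho of 1. Their log2 fold changes were smaller, at 0.37, 0.30 and 0.20. The nearest to *ndrg4* were *luc7l3* (r 0.973, rho 0.94), *glipr2l* (r 0.971, rho 1) and *grnas* (r 0.969, rho 0.94). *luc7l3* ranged only from 27.8 to 31.7 CPM, and *grnas* is annotated as an antisense RNA, whose reads cannot be told from those of its partner gene without strand. With 6 libraries and so many genes, values of r this high describe the ranking and carry no test.

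Genes of pathways linked to Ndrg proteins were followed with 6 lists of 105 genes, of which 90 were tested. None of the 90 passed an adjusted p of 0.05 in edgeR or in DESeq2, and 10 (11.1%) had an unadjusted p below 0.05 in edgeR, against 10.6% of all tested genes. The groups did not overlap in 8 genes higher (8.89%) and 9 genes lower (10%) in the mutants, against 6.95% and 8.64% of all tested genes. From each list, the 2 genes with the highest mean FPKM are described whatever their difference, all of them short of the threshold.

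In the hypoxia list, 10 of 23 tested genes were higher and 13 lower, with a median log2 fold change of -0.10. Its summed level was higher in every mutant library, at 1134 to 1284 CPM against 996 to 1035 CPM in WT, but without *hif1al* it was 852 to 932 CPM in WT and 854 to 1075 CPM in the mutants, which overlap. *hif1al*, which encodes a HIF alpha subunit, had 63.8, 102 and 183 CPM in WT and 209, 285 and 280 CPM in the mutants, and its log2 fold change was 1.15 (SE 0.38), short of the threshold in edgeR's test (adjusted p = 0.396). For *slc2a1b*, a glucose transporter gene, it was -0.23 (SE 0.34). In the Myc network, 5 of 13 were higher and the median was -0.26. *mxi1*, whose protein competes with Myc for Max, had 196, 193 and 269 CPM in WT and 348, 398 and 390 CPM in the mutants, and its log2 fold change was 0.79 (SE 0.24; edgeR, adjusted p = 0.370). *mycb*, a Myc paralog, had -0.42 (SE 0.22; edgeR, adjusted p = 0.518). The groups did not overlap for either gene, and the summed level of the list ran from 454 to 573 CPM in WT and from 599 to 679 CPM in the mutants. The difference in the sum was that of *mxi1*, since without it the sum was 261 to 304 CPM in WT and 251 to 281 CPM in the mutants.

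The list around the SGK and GSK3 kinases, not all of whose members phosphorylate NDRG proteins, had 8 of 14 genes higher and a median of 0.05. Its summed level was 418 to 597 CPM in WT and 510 to 628 CPM in the mutants, which overlap. Without *sgk1* it was 329 to 348 CPM in WT and 369 to 413 CPM in the mutants, which do not overlap. The only gene of this list whose groups did not overlap was *akt2*, named after its values were seen. It had 83.9, 86.7 and 63.8 CPM in WT and 87.1, 105 and 103 CPM in the mutants. The part of *akt2* in the sum was not tested. With 6 of the 14 genes lower, no rise of the list as a whole is read from the sum. The log2 fold change was 0.24 (SE 0.40) for *sgk1* and 0.17 (SE 0.30) for *pdpk1b*, which encodes a kinase that activates SGK. In the list of lactate and Raf-ERK genes, 8 of 15 were higher and the median was 0.10. The summed level of this list was 3223 to 4696 CPM in WT and 3799 to 5861 CPM in the mutants, which overlap. Without *ldhba* it was 1795 to 2030 CPM in WT and 2090 to 2468 CPM in the mutants, which do not overlap. The groups did not overlap for *slc16a3*, higher in the mutants, and *braf*, lower, both named after their values were seen. *slc16a3* had 206, 157 and 280 CPM in WT and 307, 476 and 428 CPM in the mutants. Its part in the sum was not tested. With 7 of the 15 genes lower, no rise of the list as a whole is read from the sum. The lactate dehydrogenase genes *ldha* and *ldhba* had log2 fold changes of -0.14 (SE 0.25) and 0.57 (SE 0.42). Among NDRG partners in trafficking and Wnt signalling, 8 of 13 were higher and the median was 0.06. The groups did not overlap for 3 of the 13 higher and 1 lower in the mutants, against 6.95% and 8.64% of all tested genes. The summed level was 2565 to 3676 CPM in WT and 3064 to 4010 CPM in the mutants, which overlap. The log2 fold change was -0.10 (SE 0.34) for *ctnnb1*, the beta-catenin gene, and 0.04 (SE 0.28) for *atp1b1a*, which encodes a subunit of the sodium pump.

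The list around *tbx5*, a transcription factor gene that acts upstream of *ndrg4* in the zebrafish heart, had 2 of 12 genes higher and 10 lower in the mutants, and its median of -0.63 was the lowest of the 6 lists. The groups did not overlap for *tbx20*, *tbx2b* and *vcana*, 3 of the 12, all lower in the mutants. These genes were named after their values were seen. Over all tested genes, 8.64% were lower in the mutants without overlap. None of the 12 passed the adjusted threshold in edgeR. The summed level of this list was 660 to 792 CPM in WT and 594 to 673 CPM in the mutants, which overlap. Its most abundant genes, *gata5* and *nkx2.5*, had log2 fold changes of -0.23 (SE 0.25) and 0.10 (SE 0.22). *tbx5a* itself, also named after its value was seen, had -0.66, and its groups overlapped. Across the split, 10 of the 12 genes were lower in libraries with *mt-co1* reads (list median -0.62), and the other two, *gata5* and *nkx2.5*, were higher. The part of the split in the difference was not tested.

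**Figure D4:**
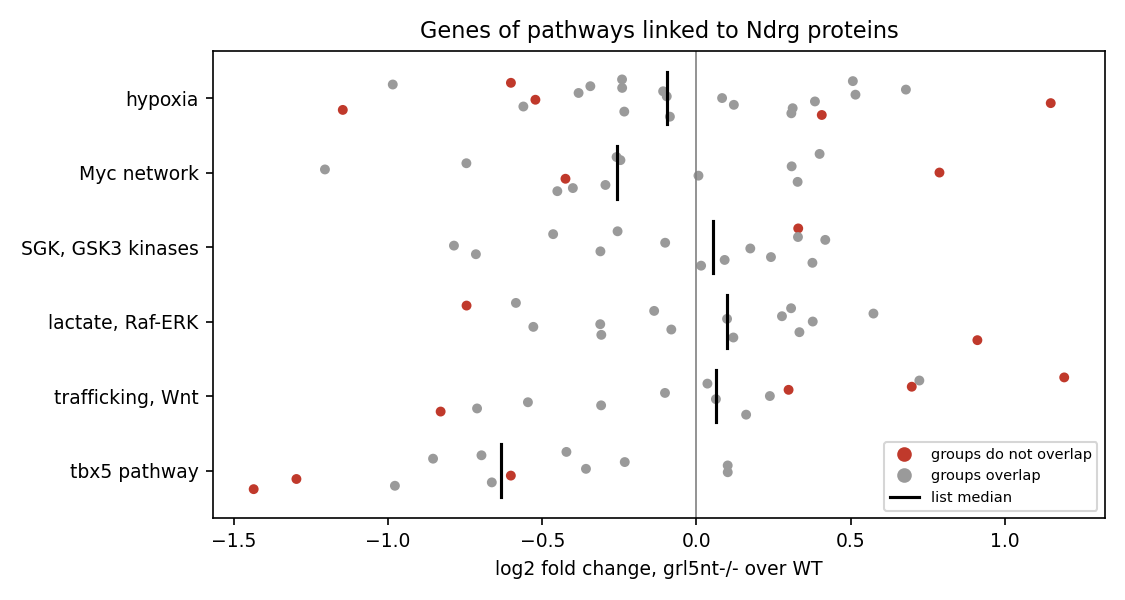
Log2 fold change of *grl5nt-/-* over WT for each tested gene of the 6 pathway lists, with a black line at the list median. Red points are genes whose groups do not overlap, with 8 above and 9 below 0, and the medians run from -0.63 (*tbx5* list) to 0.10 (lactate and Raf-ERK).

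Of the other cell types whose markers were followed, leukocytes had a lower summed level in every mutant library. The summed level of the 9 leukocyte markers was 1802, 1526 and 1320 CPM in WT and 830, 991 and 1089 CPM in the mutants, and none of these markers was at or below 3 counts throughout. Most of this sum was *cd74a* and *cd74b*, and without *cd74a* it was 510 to 821 CPM in WT and 350 to 442 CPM in the mutants. Of the 9 genes 7 had a log2 fold change below 0, 3 of them without overlap, and *mpx* and *lyz* had one above 0. Over all tested genes, 8.64% were lower in the mutants without overlap. The 7 endothelial markers summed to between 610 and 701 CPM in WT and 581 to 715 CPM in the mutants. Those of the epicardium (5 found of 6) summed to between 342 and 452 CPM in WT and 298 and 412 CPM in the mutants. Of these 5 epicardial genes 4 had a log2 fold change below 0, 1 of them without overlap, and the list median was -0.51. The erythrocyte markers found, 5 of 8, summed to between 7274 and 33269 CPM in WT and 18340 and 35794 CPM in the mutants. Markers of Schwann cells and oligodendrocytes, the cells that make myelin, summed to between 213 and 253 CPM in WT and 179 and 279 CPM in the mutants, most of it from *pmp22a* and *pmp22b*. Of the 7 tested, 3 were lower in every mutant library, and these were named after their values were seen. They were *mbpb* and *mpz*, genes of myelin proteins, and *egr2b*, of a factor that Schwann cells need to make myelin. Their log2 fold changes were -0.62, -0.56 and -1.76. The other 4 overlapped between the genotypes and had values above 0 (*plp1b* 0.43, *sox10* 0.10, *pmp22a* 0.02, *pmp22b* 0.13). The list median was 0.02, so the list as a whole was not lower. Over all lists of cell type markers, 46 genes were tested, of which 0 had an adjusted p below 0.05 in edgeR or DESeq2. An unadjusted p below 0.05 in edgeR was found for 11 (23.9%), all lower in the mutants, against 10.6% of all tested genes. The groups did not overlap in 2 markers higher (4.35%) and 8 lower (17.4%) in the mutants, against 6.95% and 8.64% of all tested genes. The part of these markers in the difference of *ndrg3a* and *ndrg3b* was not tested.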

How the data were processed

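RNA from injured ventricles was sequenced from TruSeq libraries. Per the methods and the submitters' processing notes, the authors cleaned reads with Seqtk, aligned the rest by HISAT2 2.0.4 against GRCz10, and obtained FPKM from StringTie 1.3.0. The deposited table holds, for 32105 genes in 6 libraries, a raw count and an FPKM. The counting program and its use of strand are not given in the sources used here. Columns were matched to samples by the letter in each label.

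Counts were scaled by TMM and compared between genotypes with the quasi-likelihood test of edgeR 4.0.16 (R 4.3.3, two-sided, no replicate block), with p-values of the 15602 genes passing filterByExpr adjusted after Benjamini-Hochberg and a threshold of 0.05. Log2 CPM used a prior count of 2. Log2 FPKM ratios between members used a pseudocount of 0.1 and an exact sign-flip permutation test (scipy 1.17.1). The scripts were tested on simulated data. Labels call the libraries biological replicates of pooled fish. Of the gene identifiers, 26269 were also found in a zebrafish name table, and the deposited symbols were used.

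The members, lists and tests were chosen with earlier results of these data known. Named genes are the 6 members, *hey2*, *mt-co1*, the 2 genes with the highest mean FPKM of each list, and the 3 genes most like *ndrg3a* and *ndrg4*. Genes overlapping or next to a member and those said to be chosen later are named too. *nefmb*, *mpx*, *lyz*, *plp1b* and *sox10* were also named after their values were seen. Alternatives were DESeq2 1.42.0, its size factors, omission of the filter or a minimum mean FPKM of 1, limma 3.58.1 with a pseudocount of 1 or 0.1 FPKM, the replicate block, a term for the *mt-co1* split, CPM from library totals, and each library left out.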

Additional observations from a re-analysis of the deposited data

How the results depend on the processing

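The log2 fold change of *ndrg3a* and of *ndrg3b* stayed above 0 under all 14 alternatives, from 0.65 to 1.31 for *ndrg3a* and from 0.27 to 0.80 for *ndrg3b*. The family was picked on these libraries and every alternative reused them, so the kept sign is a description and no further support. The sign of *ndrg4* changed under 3 of 14, and those of *ndrg1a* and *ndrg2* under 1 each. The number of genes called between the genotypes, 12, was 242 with the DESeq2 Wald test, 241 with a term for the split by *mt-co1* reads, 132 with the replicate block, 39 with no filter on low counts, 4 among genes whose mean FPKM reached 1 and 5 with limma on log2(FPKM + 1). With a library left out it ranged from 3, without mutant replicate 2 or 3, to 30, without WT replicate 3 or mutant replicate 1, and it was 5 without WT replicate 1 or 2. The cause was not tested. With the replicate number as a block, 1 Ndrg member, *ndrg3a*, had an adjusted p below 0.05 in edgeR, against 0 without it and with each of the other alternatives. The family was picked on this contrast, so nothing is read from that count. Same-numbered libraries deviated from their group means with correlations of 0.59, -0.34 and 0.39 across genes for numbers 1, 2 and 3. Both libraries numbered 1 lacked *mt-co1* reads and both numbered 3 had them, whereas those numbered 2 lay on opposite sides of this split. The part of the split in these correlations was not tested. The number of members whose groups do not overlap, 2, was 1 in the deposited FPKM and in CPM from library totals, neither of which corrects for abundant transcripts. For a given gene these 2 scales differ only by a fixed length, so they are not separate checks. With a library left out the number was 2 to 3, but fewer libraries make a lack of overlap easier to reach. The number of member pairs with 1 order, 9, was 9 to 11 under its alternatives. These used fewer libraries, which can only keep or raise the number, or rescaled whole libraries, which cannot change an order within a library. None of them could lower the number, so they are no check on it. Depth limited only *ndrg1b*.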
